A study of Mus musculus with 2 samples.

Results

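Interleukin-1 (IL-1) is made by myeloid cells as a precursor and is released in its active form after cleavage. The 10 genes examined here encode the agonists IL-1β (Il1b) and IL-1α (Il1a), the receptor antagonist (Il1rn), the decoy receptor (Il1r2), the receptor accessory protein (Il1rap), and the inflammasome sensors NLRP3 (Nlrp3) and NLRC4 (Nlrc4). The adaptor ASC (Pycard) and the inflammatory caspases caspase-1 (Casp1) and caspase-4 (Casp4, also called caspase-11 in the mouse) complete the set. They were chosen by name as the ligands, receptors and inflammasome components of the IL-1 system, with earlier results of these data known. All 10 were found among the 35522 features of the expression tables. RNA was taken from CD11b+ Ly6G-high Ly6C-low neutrophils sorted from the bone marrow of Balb/C mice, whose age was 5 to 8 weeks. GM-CSF, a myeloid growth factor, was present at 10 ng/ml in both cultures, which received for 3 days either PBS (the PBS-treated library) or 20 μg/ml tumor exosomes (the ELV-treated library, here called exosome-treated). The exosomes came from spheres of CT26, a mouse colon carcinoma line, grown in stem cell medium, and the cells of these spheres are called SDCSCs. There was 1 library for each treatment, and how many animals gave each library is not given in the sources used here, so no value has a replicate error and no test between the treatments was possible.

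In the canonical route a first signal through pattern recognition or cytokine receptors raises transcription of Il1b and Nlrp3, in large part through NF-κB. A second signal makes a sensor assemble with ASC and caspase-1, which cleaves pro-IL-1β and the pore-forming protein gasdermin D. Caspase-4 responds to cytosolic lipopolysaccharide, and NLRC4 acts with NAIP proteins that bind bacterial flagellin or secretion-system proteins. IL-1α and IL-1β signal through IL-1R1 with the accessory protein, whereas the receptor antagonist occupies IL-1R1 without signaling and the decoy receptor binds ligand without a signaling domain. Neutrophils are a known source of IL-1β and carry much of the decoy receptor.

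Positions are given on GRCm38, the assembly that mm10 names, from GENCODE. Il1a (129299610 to 129309972) and Il1b (129364570 to 129371139) lie next to each other on the minus strand of chromosome 2. Il1rn lies on the plus strand of the same chromosome (24336853 to 24351494). Il1r2 is on chromosome 1 (40074079 to 40125231), Il1rap on chromosome 16 (26581704 to 26730117), Nlrp3 on chromosome 11 (59541568 to 59566956), Nlrc4 on chromosome 17 (74425438 to 74459142) and Pycard on chromosome 7 (127989708 to 127993867). Casp1 (5298517 to 5307265) and Casp4 (5308828 to 5336783) are neighbours on chromosome 9.

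The bases before the start of 3 members are shown because Il1b and Il1a are the adjacent agonist genes and Casp4 is the member among the caspase genes whose level differed most between the treatments. Each run holds the 250 bases upstream of a RefSeq transcript start (GRCm38.p6), read in the direction of transcription. The windows are chr2:129371140-129371389 (minus strand), chr2:129309973-129310222 (minus strand) and chr9:5308599-5308848 (plus strand). The RefSeq gene spans used for the clusters below reach further upstream, to 129371164 for Il1b and 129310186 for Il1a. By those spans, part of the Il1b window and most of the Il1a window lie inside the gene. Capitals mark matches to 4 motifs: an NF-κB pattern (GGG and CC with any 5 bases between them, both strands), an AP-1 pattern (TGANTCA, both strands), a PU.1 pattern (GAGGAAG, both strands) and a TATA box (TATAAA, forward strand).
Il1b: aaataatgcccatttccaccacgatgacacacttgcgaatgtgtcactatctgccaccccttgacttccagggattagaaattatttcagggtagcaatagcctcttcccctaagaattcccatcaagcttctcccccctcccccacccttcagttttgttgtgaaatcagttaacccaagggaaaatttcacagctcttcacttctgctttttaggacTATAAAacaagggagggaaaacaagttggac
Il1a: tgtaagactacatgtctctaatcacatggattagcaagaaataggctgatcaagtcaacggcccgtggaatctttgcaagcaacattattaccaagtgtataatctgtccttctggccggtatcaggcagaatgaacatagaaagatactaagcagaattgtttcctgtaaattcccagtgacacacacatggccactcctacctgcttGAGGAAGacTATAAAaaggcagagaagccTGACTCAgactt
Casp4: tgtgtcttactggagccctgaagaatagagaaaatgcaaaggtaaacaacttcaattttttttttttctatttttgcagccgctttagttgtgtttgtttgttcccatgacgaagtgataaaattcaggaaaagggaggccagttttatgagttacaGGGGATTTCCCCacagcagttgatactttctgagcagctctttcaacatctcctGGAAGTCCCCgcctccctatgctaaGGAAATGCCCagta
A TATA box stood 31 to 26 bases before the start of Il1b and 32 to 27 bases before that of Il1a, and 7.59% of the 32851 windows of all RefSeq starts hold these letters. The Il1a window also held the PU.1 letters (10.6% of all windows) 41 to 35 bases and the AP-1 letters (6.75%) 12 to 6 bases before the start. The Casp4 window held the NF-κB letters in 3 stretches, the first of them, 93 to 82 bases before the start, by overlapping matches. These letters occur in 45.8% of all windows and in at least 1 window of 5 of the 10 members, and the windows of Il1b and Il1a did not contain them. A match is a description of these letters and not evidence of binding.

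Levels are given as RPKM, the reads of a gene divided by the length of its exons and by the depth of the library, which allows genes of unequal length to be set side by side. Il1b was by far the most abundant member, at 1268.17 RPKM in PBS-treated and 2678.41 RPKM in exosome-treated neutrophils. It ranked 17 of all 35522 features in the PBS-treated library and 9 in the exosome-treated library. The 10 members together held 0.449% of the summed RPKM with PBS and 0.864% with exosomes, and Il1b made up 78.8% and 89.4% of the members' sum.

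**Figure D1:**
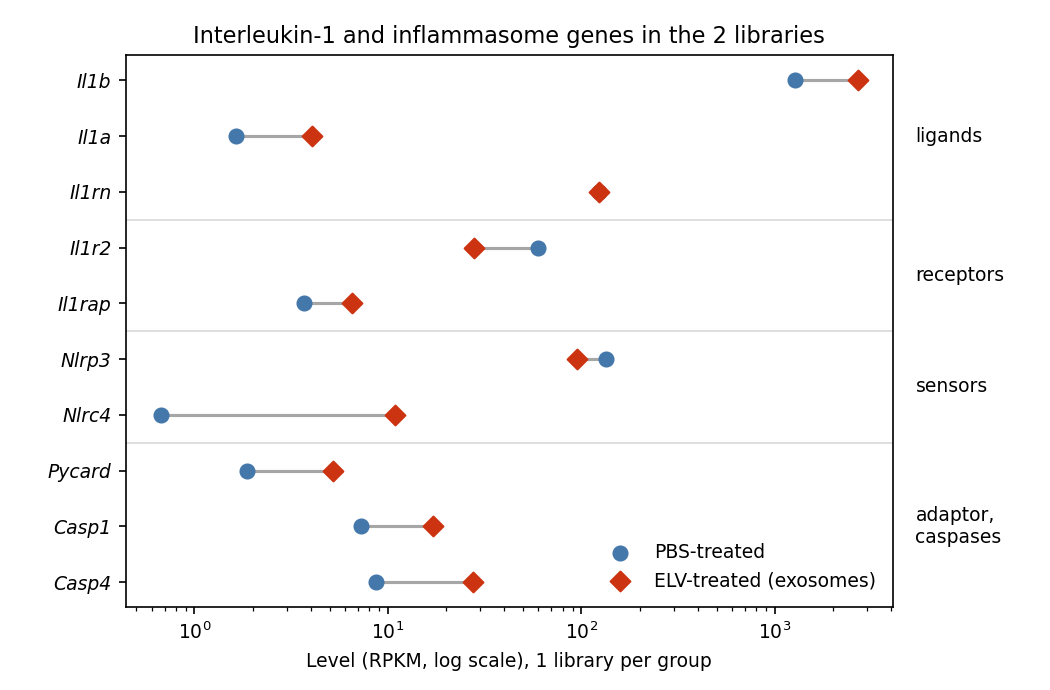
Level of each of the 10 members in RPKM (log axis) in the PBS-treated library (circles) and the exosome-treated library (diamonds), 1 library each, with a grey line joining the pair. Il1b stands above 1000 RPKM in both, Nlrc4 moves from 0.67 to 10.93 RPKM, and the symbols of Il1rn coincide.

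The order of the other members was partly kept. With PBS, Il1b was followed by Nlrp3, Il1rn, Il1r2, Casp4, Casp1, Il1rap, Pycard, Il1a and, lowest, Nlrc4. With exosomes Il1rn stood above Nlrp3, and Nlrc4 moved from place 10 to place 7, above Il1rap, Pycard and Il1a. Among neighbours in these orders, Pycard and Il1a with PBS (ratio 1.15, 95% counting interval 0.863 to 1.53) and Il1r2 and Casp4 with exosomes (ratio 1.01, interval 0.913 to 1.11) did not differ beyond counting error. Counting intervals throughout rest on estimated read numbers and cover counting error only, not the variation between cultures, animals or libraries.

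Of the 10 members, all of which had at least 0.25 RPKM in both libraries, 6 reached a 2-fold higher level after exosome treatment, 1 reached a 2-fold lower level and 3 stayed within 2-fold. The background is large in these libraries: 31.5% of the 9698 features kept were at least 2-fold higher and 5.62% at least 2-fold lower. The median log2 ratio of exosome-treated over PBS-treated RPKM was 1.16 for the members and 0.53 for all features kept. As the members were chosen with earlier results of these data known, these contrasts describe them and are not evidence of an excess. The background also changed with the level. At a mean of 1 to 5 RPKM 50.2% of features were at least 2-fold higher, at 5 to 10 RPKM 34.6%, at 10 to 50 RPKM 18.4% and at 50 RPKM or more 12.5%. For the members past the 2-fold limit the share at their own mean level is therefore given below.

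**Figure D2:**
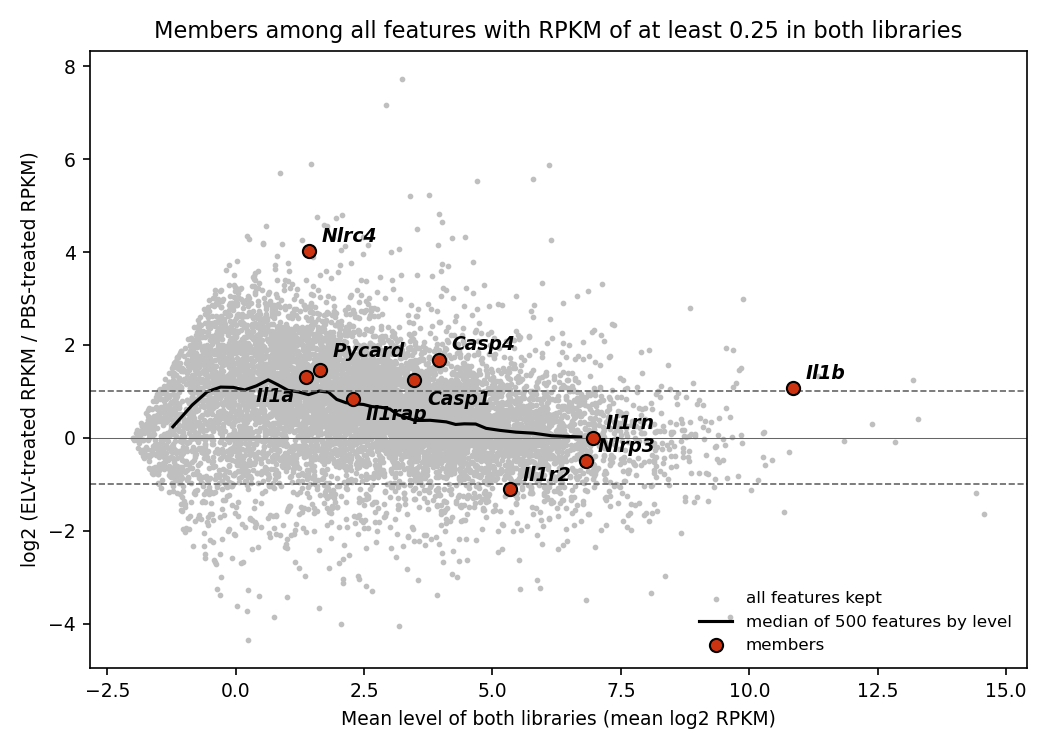
Log2 ratio of exosome-treated over PBS-treated RPKM against the mean log2 RPKM of both libraries for the 9698 features kept (grey) and the 10 members (red), with dashed lines at a 2-fold difference and a black line for the running median of 500 features. Il1a, Pycard and Il1rap lie 0.35, 0.51 and 0.12 above the median of their level, whereas Nlrc4, Casp4 and Il1b lie more than 1 above it and Il1r2 more than 1 below it.

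The agonist genes were both higher with exosomes, whereas the antagonist gene was not. Il1b was 2.11-fold higher (log2 ratio 1.08, counting interval 1.07 to 1.09). The 500 features nearest to it in level had a median log2 ratio of -0.01, and the ratio of Il1b stood 1.08 above it. At 50 RPKM or more 12.5% of features were at least 2-fold higher. Among the 23 features with a mean of at least 1000 RPKM, Il1b included, 7 (30.4%) were at least 2-fold higher. Il1a, whose product also acts as an alarm signal from dying cells, had 1.63 RPKM with PBS and 4.07 RPKM with exosomes, a ratio of 2.50 (log2 ratio 1.32, interval 1.10 to 1.55). At the level of Il1a the median log2 ratio of all features was already 0.97, and Il1a stood 0.35 above it, at 1 to 5 RPKM where 50.2% of features were at least 2-fold higher. The antagonist gene Il1rn was at 123.8 RPKM with PBS and 123.84 RPKM with exosomes, a log2 ratio of 0.00 with an interval from -0.03 to 0.03. Il1rn thus stayed at the median of features of its own level, which was also 0.00.

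The receptor genes differed from each other. Il1r2, the decoy receptor, stood at 59.52 RPKM with PBS and 27.79 RPKM with exosomes, 2.14-fold lower (log2 ratio -1.10, interval -1.16 to -1.04). At 10 to 50 RPKM 5.15% of all features were at least 2-fold lower. With the shortest coding transcript as the length, which gives the fewest reads, the interval of Il1r2 widened to -1.22 to -0.97 and included the 2-fold limit. Il1rap, the accessory protein shared by the receptors for IL-1, IL-33 and IL-36, had 3.67 RPKM with PBS and 6.54 RPKM with exosomes (log2 ratio 0.83, interval 0.73 to 0.94). This was 0.12 above the median of features at the same level. The signaling receptor gene Il1r1 had 0.1 RPKM with PBS and 0.11 RPKM with exosomes, estimated at 38 and 51 reads, and its interval of -0.47 to 0.81 included 0.

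The sensor genes moved apart. Nlrp3 was the second most abundant member with PBS, at 133.36 RPKM, and had 94.66 RPKM with exosomes, a log2 ratio of -0.49 (interval -0.52 to -0.47) that did not reach the 2-fold limit. Nlrc4 stood at 0.67 RPKM with PBS and 10.93 RPKM with exosomes, 16.3-fold higher (log2 ratio 4.03, interval 3.83 to 4.24). The PBS value rests on an estimated 209 reads and the exosome value on 4090. Only 35 of the 9698 features kept, Nlrc4 included, had a ratio at least as large. At an arithmetic mean of 5 to 10 RPKM, where Nlrc4 lies, 34.6% of features were at least 2-fold higher. The 500 features nearest to Nlrc4 by mean log2 RPKM had a median log2 ratio of 0.94, and Nlrc4 stood 3.08 above it. Nlrc4 was also the only member at least 4-fold higher, against 8.52% of all features kept, and 0 members were at least 4-fold lower, against 1.14%.

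The adaptor and both caspase genes were all at least 2-fold higher. Casp4 had 8.67 RPKM with PBS and 27.6 RPKM with exosomes, a ratio of 3.18 (log2 ratio 1.67, interval 1.56 to 1.78). Casp1 had 7.26 RPKM with PBS and 17.12 RPKM with exosomes, a ratio of 2.36 (log2 ratio 1.24, interval 1.11 to 1.36). Both lie at the level where 18.4% of features were at least 2-fold higher. Pycard had 1.87 RPKM with PBS and 5.17 RPKM with exosomes, a ratio of 2.76 (log2 ratio 1.47, interval 1.32 to 1.62). It lies at the level where 50.2% of features were. The transcript model of Pycard used here is long, at 3800 bases, and with the shortest coding transcript of 493 bases its interval was 1.05 to 1.90. Exons of Il1a, Il1b, Il1rap and Pycard share between 25 and 552 bases with a transcript on the other strand, and whether the counting used strand is not stated. The partners of Il1a and Il1rap were listed at 0 in both libraries.

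A ratio between genes of the same library does not depend on a single scaling factor between the libraries. The members were therefore also set against each other. A correction by level can still change the difference of such a ratio between the libraries. The median log2 ratio of features at the same level was -0.01 for Il1b and 0.01 for Nlrp3, but 0.38 for Casp1, 0.96 for Pycard and 0.97 for Il1a. The Il1b to Il1rn ratio was 10.2 with PBS and 21.6 with exosomes, a log2 difference of 1.08 (interval 1.05 to 1.11). The Il1b to Il1r2 ratio was 21.3 with PBS and 96.4 with exosomes, 4.52-fold larger (log2 difference 2.18, interval 2.11 to 2.24). Il1b transcripts were therefore more abundant relative to those of both IL-1 inhibitors.

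Against the 5 other members at least 2-fold higher, Il1b was relatively less abundant with exosomes, to unequal extents. Il1rap, higher but within 2-fold, had a smaller log2 ratio (0.83) than Il1b (1.08). The Il1b to Il1a ratio was 778.0 with PBS and 658.1 with exosomes (log2 difference -0.24, interval -0.47 to -0.02). Against Casp1, the ratio of Il1b was 174.7 and 156.4 (log2 difference -0.16, interval -0.28 to -0.04). The log2 differences were -0.39 against Pycard, -0.59 against Casp4 and, by far the largest, -2.95 against Nlrc4 (interval -3.15 to -2.75). Within the group of adaptor and caspases, the Casp1 to Pycard ratio went from 3.88 to 3.31 (log2 difference -0.23, interval -0.42 to -0.04). The Casp4 to Casp1 ratio went from 1.19 to 1.61 (log2 difference 0.43, interval 0.27 to 0.60). After subtraction of the median at each gene's own level, Il1b (1.08) stood above Casp1 (0.86), Pycard (0.51) and Il1a (0.35). The direction against these genes thus depended on the scaling, while Casp4 (1.31) and Nlrc4 (3.08) stayed above Il1b.

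Among the inflammasome genes the ratios that involve Nlrc4 differed most. The Nlrp3 to Nlrc4 ratio was 199.0 with PBS and 8.66 with exosomes, 23.0-fold smaller (log2 difference -4.52, interval -4.72 to -4.32). The Nlrc4 to Casp1 ratio was 0.0923 with PBS and 0.638 with exosomes (log2 difference 2.79), and that of Nlrc4 to Pycard 0.358 and 2.11 (log2 difference 2.56). By RPKM, Nlrc4 thus went from below to above Pycard. The Nlrp3 to Casp1 ratio was 18.4 with PBS and 5.53 with exosomes, and that of Nlrp3 to Pycard 71.3 and 18.3. By RPKM, Nlrp3 thus stayed above Nlrc4, Casp1 and Pycard in both libraries, by a smaller margin with exosomes. The orders against Pycard depend on the exon length the authors used for it, which is not stated. Its transcript model here has 3800 bases and its shortest coding transcript 493.

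**Figure D3:**
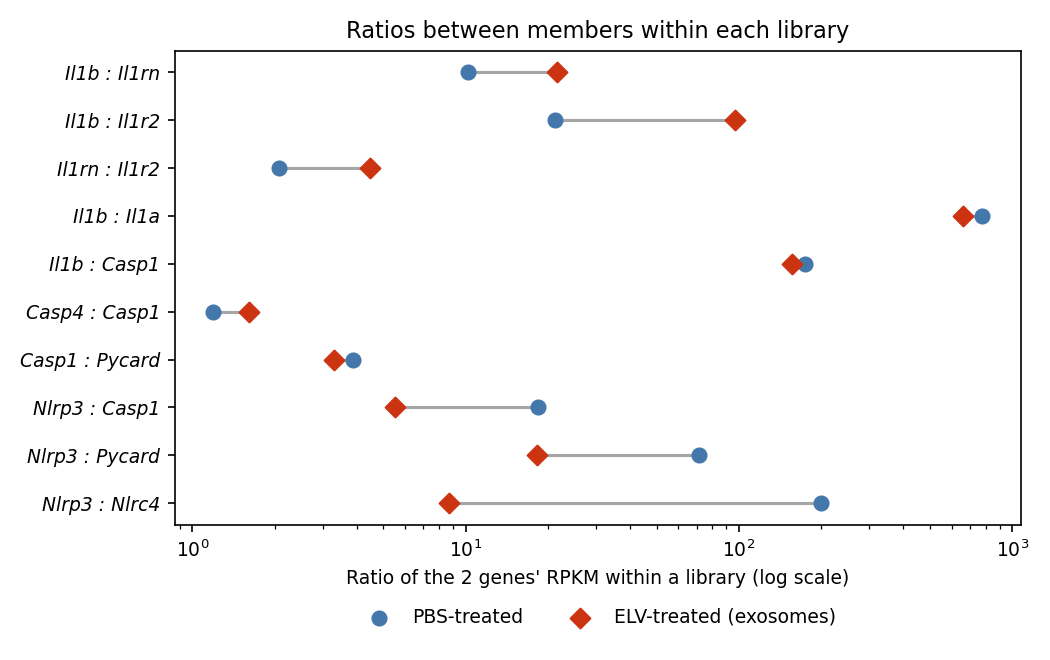
Ratio of the RPKM of paired members within the PBS-treated library (circles) and within the exosome-treated library (diamonds) on a log axis. The ratio of Il1b to Il1r2 moves from 21.3 to 96.4 and that of Nlrp3 to Nlrc4 from 199.0 to 8.66, while Il1b to Il1a and Il1b to Casp1 move little.

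How the libraries are scaled against each other decides part of these calls, because the median of all features kept was not 0. Nlrc4, Casp4 and Il1r2 kept their calls under all 6 scalings compared. Il1b had a log2 ratio of 0.55 after median centring, 0.54 after trimmed mean removal (subtraction of the mean log ratio without its extremes) and 0.91 when the libraries were set to equal sums without S100a8 and S100a9, all under the 2-fold limit. With centring on features of its own level it stayed at 1.08. Casp1, Pycard and Il1a lost their calls under median, trimmed mean and level-matched centring, with the lowest values at 0.70, 0.51 and 0.35. Nlrp3 passed the limit on the lower side under median centring (-1.02) and trimmed mean removal (-1.04). Il1rn was at -0.53 and -0.54 under these settings.

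**Figure D4:**
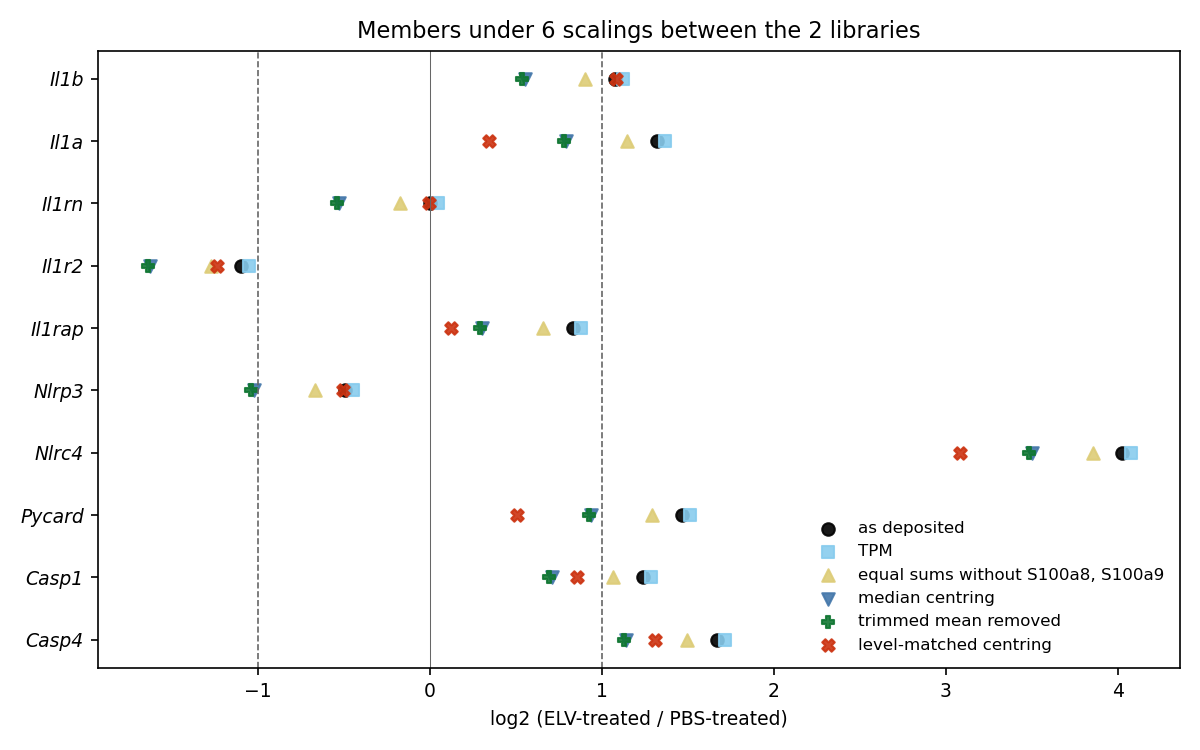
Log2 ratio of exosome-treated over PBS-treated level for each member under 6 scalings of the libraries, with dashed lines at a 2-fold difference. Nlrc4 and Casp4 stay right of the upper line and Il1r2 left of the lower line in all of them. Il1b, Il1a, Pycard and Casp1 cross the upper line, and Nlrp3 crosses the lower line under median centring (-1.02) and trimmed mean removal (-1.04).

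The other genes of the pathway were taken from 8 lists with 99 genes, all of which had a row in the tables. Of the 78 with at least 0.25 RPKM in both libraries, 23 (29.5%) were at least 2-fold higher and 6 (7.69%) at least 2-fold lower, with a median log2 ratio of 0.50. These shares are near the background of 31.5% and 5.62% and the median is near the 0.53 of all features, so the lists as a whole did not stand out from the features kept. Single genes within them did differ in opposite directions, as described by role below.

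Among the other IL-1 family ligands and soluble antagonists, 1 of 4 genes kept was at least 2-fold higher and 0 were lower. The background was 31.5% higher and 5.62% lower. The ligand gene Il36g (listed under its older symbol Il1f9) was abundant, at 747.88 RPKM with PBS and 439.35 RPKM with exosomes (log2 ratio -0.77). Il36a (Il1f6) had 0.81 RPKM with PBS and 2.66 RPKM with exosomes (log2 ratio 1.72). Il18, whose product is another substrate of caspase-1, had 10.19 RPKM with PBS and 9.88 RPKM with exosomes, and its interval of -0.21 to 0.12 included 0. Il18bp, which encodes a soluble inhibitor of IL-18, had 8.03 and 5.35 RPKM. Il33 was at an estimated single read with PBS and was listed at 0 with exosomes, where 3 reads would give 0.0149 RPKM. Il1b was thus 1.70 times as abundant as Il36g with PBS and 6.10 times with exosomes.

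Among the other receptors, 1 of 4 genes kept was at least 2-fold higher (background 31.5%) and 0 were lower (5.62%). Il18rap, a chain of the IL-18 receptor, was the most abundant receptor gene of the family, at 95.66 RPKM with PBS and 54.34 RPKM with exosomes (log2 ratio -0.82). Its partner chain Il18r1 had 2.96 RPKM with PBS and 7.22 RPKM with exosomes (log2 ratio 1.29), so that the Il18rap to Il18r1 ratio was 32.3 and 7.53. Sigirr, which encodes an inhibitory receptor of the family, stood at 0.4 and 0.34 RPKM, and its interval of -0.81 to 0.34 included 0.

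Genes of signaling below the IL-1 receptor mostly stayed within 2-fold, with 2 of 17 higher (background 31.5%) and 1 lower (5.62%). Irak3, which encodes the inhibitory kinase-like protein IRAK-M, was at 44.2 RPKM with PBS and 440.77 RPKM with exosomes (log2 ratio 3.32, interval 3.29 to 3.35). Map3k7, the gene of the kinase TAK1, had 5.43 RPKM with PBS and 13.73 RPKM with exosomes (log2 ratio 1.34). Ikbkg, which encodes NEMO, the regulatory subunit of the IκB kinase, had 47.37 RPKM with PBS and 16.69 RPKM with exosomes (log2 ratio -1.50, interval -1.54 to -1.47). The adaptor gene Myd88 (63.32 and 70 RPKM) and the kinase gene Irak4 (23.37 and 25.54 RPKM) had log2 ratios of 0.14 and 0.13.

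Other inflammasome sensors and regulators differed in both directions. Of 13 genes kept, 5 (38.5%) were at least 2-fold higher and 3 lower, against a background of 31.5% and 5.62%. After median centring 3 were higher and 4 lower, and after level-matched centring 2 were higher and 3 lower. Mefv, which encodes the sensor pyrin, stood at 11.34 RPKM with PBS and 62.65 RPKM with exosomes (log2 ratio 2.47, interval 2.40 to 2.53). Naip5, which encodes a flagellin receptor that acts with NLRC4, had 0.87 RPKM with PBS and 2.43 RPKM with exosomes (log2 ratio 1.48). Naip2, a related receptor gene, had 16.61 RPKM with PBS and 18.2 RPKM with exosomes, so that Nlrc4 went from 0.0403 to 0.601 times the level of Naip2. Casp8, Brcc3 and Panx1 were the other genes at least 2-fold higher, with log2 ratios of 1.69, 1.69 and 1.02.

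Sensor genes were also found on the lower side. Nlrp1b had 21.72 RPKM with PBS and 5.57 RPKM with exosomes (log2 ratio -1.96), and its paralog Nlrp1a 2.43 and 0.69 RPKM (log2 ratio -1.82). Nlrp12, whose product is described as a regulator of NF-κB signaling, had 43.99 RPKM with PBS and 17.54 RPKM with exosomes (log2 ratio -1.33). Aim2, the gene of a DNA sensor, had 44.44 and 25.73 RPKM (log2 ratio -0.79). The Naip genes and the Nlrp1 genes are families of similar sequences, and how reads shared within them were assigned is not stated.

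For pyroptosis and release, 1 of 4 genes kept was at least 2-fold higher (background 31.5%) and 1 lower (5.62%). Gsdmd, the gene of the pore-forming substrate of caspase-1 and caspase-4, had 58.93 RPKM with PBS and 81.06 RPKM with exosomes (log2 ratio 0.46, interval 0.42 to 0.50). Gsdme (listed as Dfna5), the gene of another gasdermin, had 98.19 RPKM with PBS and 26.21 RPKM with exosomes (log2 ratio -1.91, interval -1.95 to -1.86). The Gsdmd to Gsdme ratio was 0.600 with PBS and 3.09 with exosomes. Cflar, which encodes an inhibitor of caspase-8, had 22.63 and 48.49 RPKM (log2 ratio 1.10).

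Among proteases that process IL-1 and their inhibitors, 2 of 10 genes kept were at least 2-fold higher (background 31.5%) and 1 lower (5.62%). The calpain gene Capn2 was at 0.6 RPKM with PBS and 6.29 RPKM with exosomes (log2 ratio 3.39, interval 3.13 to 3.66), whereas Capn1 was at 125.87 and 75.18 RPKM (log2 ratio -0.74). Calpains cleave the IL-1α precursor. Serpinb1a, which encodes an inhibitor of neutrophil serine proteases and of inflammatory caspases, had 13.54 RPKM with PBS and 3.39 RPKM with exosomes and was thus 3.99-fold lower. The serine protease genes Elane (2.64 and 3.31 RPKM), Prtn3 (1.14 and 2.9 RPKM) and Ctsg (1.1 and 2.17 RPKM) were low in both libraries.

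Of 14 kept genes that IL-1 is known to induce in many cells, 7 were at least 2-fold higher and 0 lower. Their median log2 ratio was 1.01. For all features kept the values were 31.5%, 5.62% and 0.53. The list was chosen with earlier results of these data known, so this contrast is a description only. The split depended on the scaling, with 4 higher and 1 lower (Ptgs2, -1.16) after median centring and 6 higher and 1 lower (Cxcl3, -1.25) after level-matched centring. Saa3, an acute-phase gene, had 16.16 RPKM with PBS and 308.34 RPKM with exosomes (log2 ratio 4.25, interval 4.13 to 4.37). Csf3, the gene of the growth factor G-CSF, had 4.07 and 18.07 RPKM (log2 ratio 2.15). The other 5 were Tnf, Zc3h12a, Lcn2, Ptges and Nfkbia, with log2 ratios of 1.64, 1.58, 1.33, 1.29 and 1.11. The neutrophil chemokine genes Cxcl1, Cxcl2 and Cxcl3 had log2 ratios of 0.10, -0.08 and -0.27, and Ptgs2 had -0.64. Il6 stood at 0.24 RPKM with PBS and 0.1 RPKM with exosomes, below the minimum for a call.

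Of 12 genes for transcription factors that act on Il1b, 4 (33.3%) were at least 2-fold higher and 0 lower, near the background of 31.5%. These were Nfkb1, Nfkb2, Hif1a and Relb, with log2 ratios of 1.51, 1.19, 1.12 and 1.11, and Rel was just under the limit at 0.96. After median centring, and after trimmed mean removal, 0 of the 12 were past the limit (Nfkb1 0.98, Nfkb2 0.66, Hif1a 0.59 and Relb 0.58 with the former), and level-matched centring left 3 higher and 1 (Irf4) lower. Rela had 53.73 RPKM with PBS and 57.48 RPKM with exosomes (log2 ratio 0.10). The myeloid factor genes Spi1 (listed as Sfpi1, 310.26 and 341.01 RPKM) and Cebpb (227.42 and 418.72 RPKM) had log2 ratios of 0.14 and 0.88.

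**Figure D5:**
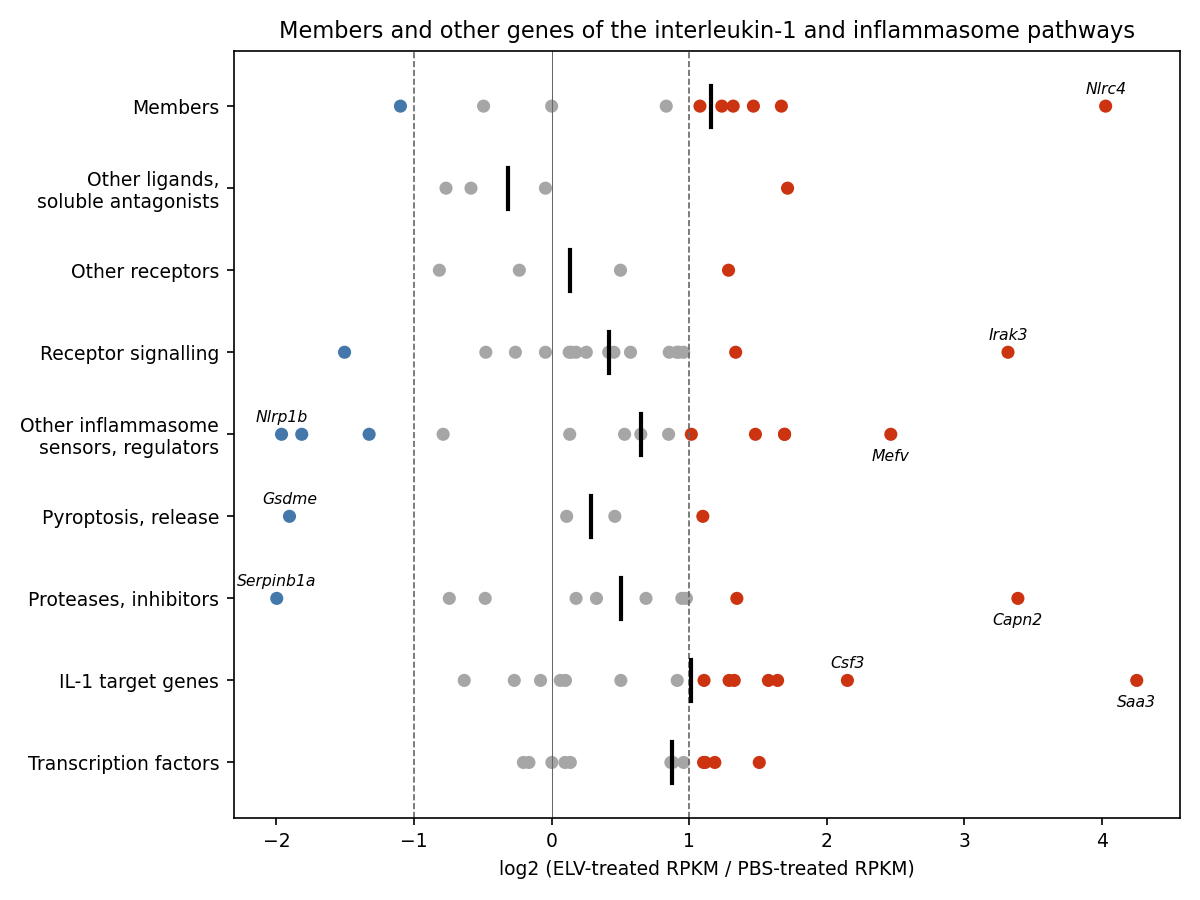
Log2 ratio of exosome-treated over PBS-treated RPKM for the 10 members and for the 78 other pathway genes kept, by list, with a black bar at each median and dashed lines at a 2-fold difference (red higher, blue lower, grey within). The medians run from -0.32 for other ligands and soluble antagonists to 1.16 for all members together, and the target genes have 7 points beyond the upper line and 0 beyond the lower one as deposited, a split that changes with the scaling.

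Under the 5 other scalings, 14 of the 29 calls among these pathway genes held in all, 8 higher and 6 lower. Those higher were Irak3, Mefv, Casp8, Capn2, Saa3, Csf3, Tnf and Zc3h12a, and those lower were Ikbkg, Nlrp1a, Nlrp1b, Nlrp12, Gsdme and Serpinb1a. The other 15, all higher as deposited, were within 2-fold under at least 1 scaling: Il36a, Il18r1, Map3k7, Naip5, Panx1, Brcc3, Cflar, Prtn3, Lcn2, Ptges, Nfkbia, Nfkb1, Nfkb2, Hif1a and Relb.

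Marker genes of several cell types differed in level along with these values. Of 15 neutrophil marker genes, all of them kept, 12 were lower with exosomes. At least 2-fold lower were 11 of them, against 5.62% of all features kept. At least 2-fold higher were 0, against 31.5%. The 15 summed to 85359 RPKM with PBS and 31013 RPKM with exosomes. Most of this was S100a8 (32822.8 and 14381.8 RPKM) and S100a9 (43059.1 and 13834.1 RPKM). Ly6g, the gene of the sort marker, had 286.96 RPKM with PBS and 56.19 RPKM with exosomes. Also lower were Retnlg (3021 and 208.33 RPKM), Camp (381.38 and 33.92 RPKM) and Ngp (862.34 and 85.01 RPKM). Ltf had 143.98 and 15.09 RPKM and Mmp8 832.76 and 199.67 RPKM. Cxcr2, Csf3r, Fcgr3 and Mmp9 were the others that were lower, Mmp9 within 2-fold. Itgam (312.74 and 393.4 RPKM), Mpo (5.48 and 8.42 RPKM) and Elane (2.64 and 3.31 RPKM) were higher. Of 15 monocyte and macrophage marker genes 14 were higher, with a summed level of 467.9 and 725.6 RPKM, and none was at 0 in either library. Of the 9 kept, 5 (55.6%) were at least 2-fold higher and 1 lower, against 31.5% and 5.62% of all features kept. Most features were higher too, as 73.0% of those kept had a log2 ratio above that of Il1rn (0.00). Among the monocyte and macrophage markers, Adgre1 (listed as Emr1) had 20.91 RPKM with PBS and 151.51 RPKM with exosomes. Csf1r had 58.1 and 152.64, Ms4a7 1.02 and 16.79, and C1qc 0.27 and 3.79. The exception was Ly6c2, the most abundant of these markers with PBS, at 184.41 RPKM with PBS and 37.12 RPKM with exosomes (log2 ratio -2.31). All 6 B cell marker genes were present in both libraries, at a summed 110.0 and 68.0 RPKM, although the cells were sorted as neutrophils. Of 9 T and NK cell markers only Cd3d (56.44 and 7.02 RPKM) reached 0.25 RPKM in both libraries. Cd3g reached it with PBS only (1.19 and 0.11 RPKM) and Klrb1c with exosomes only (0.01 and 0.51 RPKM). Trac and Eomes were listed at 0 in both. The summed level of 9 dendritic cell markers was 13.8 and 6.94 RPKM, and that of 8 eosinophil, basophil and mast cell markers 12.4 and 7.13 RPKM. All 6 erythroid markers summed to 1.74 and 0.205 RPKM. The 8 colon carcinoma markers summed to 205.6 and 224.0 RPKM, nearly all of it Cd44, and Krt8 and Col1a1 were listed at 0 in both libraries. In RNA of a whole culture fewer cells of a type and less RNA per cell cannot be told apart. The part of other cell types in the values of the IL-1 genes was not tested.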

How the data were processed

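RNA of 2 neutrophil cultures was sequenced as TruSeq mRNA libraries, 1 for PBS and 1 for SDCSC exosomes. The authors trimmed reads by quality, analysed them in CLC Genomics Workbench (build mm10 per the labels) and deposited RPKM for each feature. Annotation, strand setting, assignment of shared reads and any scaling between libraries are not stated, and 25 features carry a date number in place of a name. Features were matched by symbol, older symbol or RefSeq synonym. A feature was kept at an RPKM of at least 0.25 in both libraries and called at a 2-fold ratio, the rule of the study, without a pseudocount. No test was run.

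Depth was estimated from values under 0.01 RPKM that stand for a single read and was 65969457 mapped reads for PBS and 79126945 for exosomes, from 269 of 918 and 307 of 1064 features within 1% of each other. Read numbers used GENCODE M21 transcript lengths (the longest with a RefSeq match), which need not be the model of the authors. Intervals are 95% Clopper-Pearson intervals of these reads, or log-normal ones for ratios within a library, and cover counting error only.

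Alternatives were median centring, trimmed mean removal (30% of ratios and 5% of means left out at each end), centring on the 500 features nearest in level, TPM, equal sums without S100a8 and S100a9, an RPKM of at least 1, a pseudocount of 0.25 without filter, a pseudocount of 1 and a 4-fold limit. The members and gene lists were chosen with earlier results of these data known. All members and genes of the lists could be named. The 5 features nearest to Il1b, Il1r2 and Nlrc4 by Euclidean distance of the log2 RPKM pair were also named. The steps were tested on simulated reads. Python 3.11.15, pandas 2.3.3, numpy 2.4.6, scipy 1.17.1 and matplotlib 3.10.9 were used.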

Additional observations from a re-analysis of the deposited data

How the results depend on the processing

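Under median centring 2 members were at least 2-fold higher and 2 lower, with a median of 0.63, and 10 other pathway genes were higher and 14 lower. Trimmed mean removal gave the same counts (2 and 2 members, 10 and 14 pathway genes) and a median of 0.62. Level-matched centring left 3 members higher, a median of 0.43 and 13 pathway genes higher. A limit of 4-fold left 1 member higher and 0 lower, and 5 pathway genes higher and 0 lower, by construction of the limit. The members' median was 1.21 with TPM, 0.99 with equal sums without S100a8 and S100a9, 1.08 with an RPKM of at least 1 (which removed Nlrc4), 1.14 with a pseudocount of 0.25 and 1.01 with a pseudocount of 1, and under these 5 settings the counts of members and pathway genes stayed within 1.5 times. Among all features kept, 16.8% were higher and 13.2% lower after median centring, 16.4% and 13.6% after trimmed mean removal, 12.5% and 13.7% after level-matched centring, and 25.8% and 7.43% with equal sums without S100a8 and S100a9, against 31.5% and 5.62% as deposited. The minimum of 1 RPKM left 1958 features higher in place of 3056, and a pseudocount of 1 left 1976. Which scaling is right cannot be told from 2 libraries. Il1rn, Il1r2, Il1rap, Nlrc4 and Casp4 (5 of 10) stayed on their side of the limit under all settings with the 2-fold limit that kept them, Il1a was at 0.95 with a pseudocount of 1, and no call reversed its sign. The Il1b to Il1rn and Il1b to Il1r2 differences were 1.08 and 2.15 with a pseudocount of 1. No paired analysis was possible because each group has 1 library. Rounding to 0.01 RPKM adds up to 0.746% to a member's value, for Nlrc4 with PBS.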

Other observations

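Several members lie in clusters of related genes. In the receptor cluster on chromosome 1, which spans 467.0 kb of the RefSeq annotation, the genes at both ends, Il1r2 (log2 ratio -1.10) and Il18rap (-0.82), were abundant and lower with exosomes. Between them Il1r1, Il1rl2 and Il1rl1 stayed under 1 RPKM in both libraries, and Il18r1 had a log2 ratio of 1.29. In the cluster of 198.3 kb on chromosome 2 that ends with Il1rn (log2 ratio 0.00), Il36g was abundant and had a log2 ratio of -0.77, Il36a had 1.72, and Il36rn and Il1f10 were at or under 0.01 RPKM in both libraries. In the caspase cluster on chromosome 9, Casp1 and Casp4 had log2 ratios of 1.24 and 1.67, while Casp12 stood at 0.00582 RPKM with PBS and 0.02 RPKM with exosomes, about 1 and 4 reads.

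The 5 features nearest to 3 of the members were picked by the pair of log2 levels, so that their likeness follows from the choice. For Il1b the nearest was Lcn2, the gene of the granule protein lipocalin-2, at a distance of 0.71 on the log2 scale (1625.81 and 4080.94 RPKM), followed by Tyrobp, Lcp1, Ubb and Ctsd at 0.98 to 1.24. For Il1r2 the nearest 5, Zdhhc18, Icosl, Rchy1, Usp32 and Rgs14, lay within 0.11. For Nlrc4 they were Rhoq (0.74 and 10.95 RPKM, distance 0.14), Pon3, Hs6st1, Cep70 and Mrps18b, the last at 0.55. These distances rest on 2 libraries and describe only these levels.

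Nos2 and Ccl2, further genes that IL-1 can induce, were below the minimum for a call with PBS. Nos2 had 0.09 RPKM with PBS and 1.56 RPKM with exosomes, an estimated 25 and 517 reads, and Ccl2 had 0.13 and 1.72 RPKM, an estimated 7 and 111 reads. P2rx7, which encodes the ATP receptor upstream of NLRP3, had 0.06 and 0.41 RPKM, an estimated 20 and 160 reads.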
